A study of Homo sapiens with 19 samples.

Results

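The integrin subunits described here are ITGAM, ITGAX, ITGAL and ITGB2 of the leukocyte integrins and ITGAV, ITGB3, ITGB5, ITGA4, ITGA5 and ITGB1 of the receptors for extracellular matrix and vascular ligands. Members were taken by their gene name on the array. All 10 were found, with 18 probes, among 31033 gene names and 50238 probes. THP-1 cells, a human monocytic leukemia line, were first differentiated with 30 nM PMA, a phorbol ester, for 16 to 18 h and rested for 2 to 3 h, a step that every group shared. The cells were then left untreated (UT) or given 0.1 mM vit C and harvested at 8, 24, 48 and 96 h. In time order the UT groups held 2, 3, 2 and 3 arrays and the vit C groups 3, 2, 2 and 2. The cells are a leukemia line differentiated with a chemical, and no donor variation enters these values. No undifferentiated cells were measured, so the change brought by PMA itself is outside the data.

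Integrins are surface receptors made of an alpha and a beta chain, and each alpha chain decides with its partner what the receptor binds. ITGAM (CD11b), ITGAX (CD11c) and ITGAL (CD11a) all pair with ITGB2 (CD18) and serve complement uptake and binding to ICAM molecules. ITGAV pairs with ITGB3 or ITGB5 and binds vitronectin and other proteins with an RGD motif, ITGA5 with ITGB1 is the classical fibronectin receptor, and ITGA4 with ITGB1 binds VCAM1. In macrophages these receptors carry adhesion, migration and the uptake of particles and dying cells, and talin and the kindlins switch them on from inside the cell.

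Levels are log2 values of the scanner software's processed signal minus the 75th percentile of the same array, so 0 is the brightness of that percentile. They rank arrays for 1 probe and were not used to rank genes. The brightest probe of a gene stands for it, and the 10 brightest probes were well above background on all 19 arrays. A change passed the test at a log2 change of at least 1 in size with a Benjamini-Hochberg q of at most 0.05 from limma, adjusted over all probes. The 75th percentile of the signal was between 290 and 626 on 17 arrays and 788 and 903 on the vit C arrays at 96 h. The arrays lay on 4 slides. No slide held UT and vit C arrays of the same time point, and the vit C arrays at 96 h had a slide and a scan day of their own, so their difference from other groups and that of the slide cannot be told apart. UT replicate 3 at 96 h stood apart from the other UT arrays of that time for several members. Some results that rest on it are also given without it. Of 14 monocyte and macrophage markers, 12 or 13 were well above background on every array, with a summed log2 level of 9.01 to 9.55 over all arrays, while MRC1 was on none. CD3D, COL1A2, CDH1 and CDH5, which define T cells, fibroblasts, epithelium and endothelium, were well above background on no array. RNA was extracted from whole cultures, so a lower level of a subunit cannot tell less RNA per cell from fewer cells that carry it.

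ITGAM and ITGA5 are shown with the 250 bases before their start (RefSeq, GRCh38.p14), since both had levels that moved in the comparisons below and both had an entry in the promoter table, which matched 6 of the 10 members. ITGAX, ITGAL, ITGB2 and ITGB3 were the others. Capitals mark GAGGAA, the core bound by PU.1, TGANTCA, the AP-1 element that answers to phorbol esters, and GGGCGG, the GC box bound by SP1, each searched on both strands. The ITGAM window (chr16:31259725-31259974, plus strand) held 1 GAGGAA and 2 GGGCGG, and the ITGA5 window (chr12:54419267-54419516, minus strand) held 1 GGGCGG, with no overlap between matches. Of 35116 such windows in the table, 23.6% held GAGGAA, 6.57% held TGANTCA and 42.6% held GGGCGG. The 10 windows of members held them in 4, 0 and 5 cases.
ITGAM: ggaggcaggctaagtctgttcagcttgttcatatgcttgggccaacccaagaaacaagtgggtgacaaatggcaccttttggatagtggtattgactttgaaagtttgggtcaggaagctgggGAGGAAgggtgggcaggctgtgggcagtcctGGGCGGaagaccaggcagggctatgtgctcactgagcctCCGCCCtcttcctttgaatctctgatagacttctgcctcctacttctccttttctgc
ITGA5: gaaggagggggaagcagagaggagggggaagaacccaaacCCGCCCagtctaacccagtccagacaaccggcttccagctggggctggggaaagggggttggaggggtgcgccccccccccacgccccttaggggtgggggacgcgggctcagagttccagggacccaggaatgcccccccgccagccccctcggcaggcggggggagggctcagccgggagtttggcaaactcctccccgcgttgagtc

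The ITGB1 gene, whose chain is shared by the fibronectin and VCAM1 receptors, had 4 probes of 60 bases, and the 3 dimmer ones are printed because they departed from the brightest (P95397) in the results below. Each of these 3 sequences has at least 1 sense reading frame without a stop codon, and the brightest has 0. Where the probes lie on the genome was not determined here. ITGAX, the CD11c chain, is shown with its second probe, which passed the test at 96 h as the brightest did.
ITGB1 P104193: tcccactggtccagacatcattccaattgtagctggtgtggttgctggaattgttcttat
ITGB1 P104199: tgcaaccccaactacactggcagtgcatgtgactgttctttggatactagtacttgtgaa
ITGB1 P598836: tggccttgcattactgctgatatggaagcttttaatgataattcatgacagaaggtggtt
ITGAX P344251: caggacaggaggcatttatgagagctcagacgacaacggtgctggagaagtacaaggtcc

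**Figure D1:**
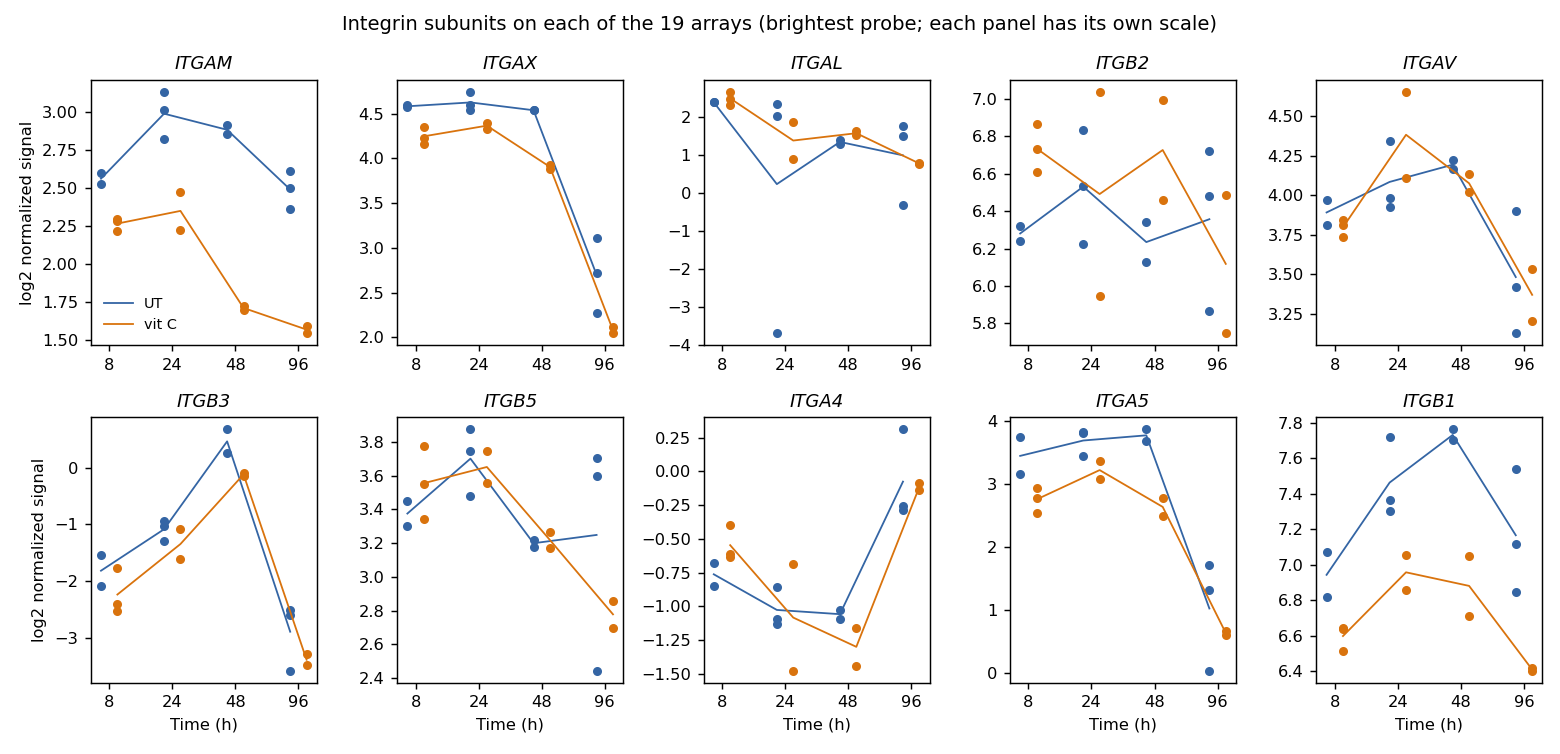
Log2 normalized signal (y axis) of the brightest probe of each integrin subunit against time in h (x axis, evenly spaced) in UT (blue) and vit C-treated (orange) cells, with 1 point per array and lines through the group means. ITGAX and ITGA5 drop at 96 h in both arms, ITGB3 peaks at 48 h, ITGAM is lower in vit C-treated cells at each time, and a single UT array at 24 h lies at -3.70 for ITGAL.

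The first question of the design is what vit C did to these subunits at each time point. ITGAM was lower in vit C-treated cells at 48 h and was the only member to pass the test, at 48 h or at any other time. No member passed as higher. At 8 h 0 of 10 members passed, with 0.342% of the detected genes passing, and 0 members had an unadjusted p under 0.05. At 24 h 0 members passed against 1.48% of detected genes, and 2 had an unadjusted p under 0.05. At 48 h 1 member passed as lower against 1.53%, and at 96 h 0 passed against 4.18%, with 3 members at an unadjusted p under 0.05. The methods' t-test gave 0 at all 4 times, and ITGAM at 48 h had q = 0.23 in it. The median log2 difference of the 10 members was -0.19, -0.16, -0.41 and -0.43 in time order, beside medians over detected genes of -0.09, -0.01, -0.07 and -0.05. Without UT replicate 3 at 96 h, ITGAX, ITGAL, ITGB3, ITGB5 and ITGA5 had -0.88 to -0.83 there, ITGAM -0.92 and ITGB1 -0.57. ITGAV and ITGA4 then had a higher mean with vit C. With slide as a fixed term the 24 h differences of ITGAX, ITGB3, ITGB5 and ITGA5 turned positive, and those of ITGAM and ITGB1 stayed negative. A p-value here measures the spread between arrays, which the methods call biological replicates.

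ITGAM carries the alpha chain of complement receptor 3. Its log2 level was 2.60 and 2.53 in UT cells at 8 h, 3.13, 3.02 and 2.82 at 24 h, 2.85 and 2.92 at 48 h, and 2.61, 2.36 and 2.50 at 96 h. In vit C-treated cells it was 2.30, 2.29 and 2.22 at 8 h, 2.22 and 2.48 at 24 h, 1.72 and 1.70 at 48 h, and 1.59 and 1.55 at 96 h. Every vit C array lay below every UT array of its time, and 48 h had the widest gap. At 48 h the level was 2.26-fold lower in vit C-treated cells, a log2 difference of -1.17 ± 0.18 (SE, n = 2 and 2, limma q = 0.00426). At 96 h the log2 difference was -0.92 ± 0.16 (SE, limma q = 0.00584), which met the limit for q and not that for fold. Without either vit C array at 96 h the q was 0.0627 and 0.0731, and in the methods' t-test 0.281. The difference was -0.30 at 8 h (q = 0.546) and -0.64 at 24 h (q = 0.0766), also short of the test.

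The F test of differences among the 4 vit C effects gave q = 0.191 for ITGAM (unadjusted p = 0.0148), so its effect was not shown to differ between times. Of the 10 members 0 passed that F test by limma, with 1.28% of detected genes passing, and ITGAM alone had an unadjusted p under 0.05. With slide as a fixed term in the fit, the ITGAM difference at 48 h was -0.98 with q = 0.356, and slide and arm cannot be told apart within a time point. At 48 h 5 marker lists of other cell types also had higher summed log2 levels on vit C arrays than on UT arrays, without overlap. The endothelial list, of which 2 of 5 genes were well above background, was at 0.22 to 0.41 against -0.85 to -0.76, and the fibroblast list at 3.21 to 3.57 against 2.66 to 2.78. The megakaryocyte list was at 1.92 to 2.48 against 1.29 to 1.42, the B cell list at 1.89 to 2.33 against 0.91 to 1.36, and the epithelial list at -1.47 to -0.96 against -1.90 to -1.85. The monocyte and macrophage list read 9.39 to 9.45 and 9.39 to 9.42. The part of these lists in the ITGAM value was not tested.

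ITGAX, the alpha chain of complement receptor 4, lies next to ITGAM in the genome and by its brightest probe showed lower vit C arrays without overlap at each time. The log2 differences of that probe were -0.34, -0.26, -0.63 and -0.62 at 8, 24, 48 and 96 h, with q from 0.0673 to 0.604, and none passed the test. The second probe, P344251, had 0.01, -0.75, -0.37 and -0.85, with overlapping arms at 8, 24 and 96 h and q from 0.274 to 0.998, and under the methods' rule on opposing probes ITGAX would be left out at 8 h. ITGA5 had log2 differences of -0.69, -0.47, -1.13 and -0.39, and that at 48 h had SE 0.40 and q = 0.188. Without UT replicate 3 at 96 h these differences at 96 h were -0.83 for ITGAX (q = 0.00773), -0.88 for ITGA5 (q = 0.0203) and, from -0.50 (q = 0.383) with it, -0.84 for ITGB3 (q = 0.0463), each short of the fold limit. With slide as a fixed term the sign turned at 8 and 24 h for both genes, to 0.29 and 0.36 for ITGAX and to 0.35 and 0.58 for ITGA5, and at 48 h it was 0.01 for ITGAX and -0.23 for ITGA5 (q = 0.993).

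Vit C arrays lay wholly below UT arrays for 4, 4, 7 and 3 members at the 4 times in order. The same held for 29.6%, 16.9%, 38.1% and 18.3% of detected genes. They lay wholly above for 2 members at 8 h (ITGB2 and ITGA4), 0 at 24 h, 2 at 48 h (ITGAL and ITGB2) and 0 at 96 h, with 18%, 16.4%, 26% and 13.3% of detected genes doing so. Separations of this kind were common among all genes with groups of 2 or 3 arrays.

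Averaged over the 4 times, 0 members passed the test, against 3.13% of detected genes. The limit for q alone was met by ITGAM (-0.76 ± 0.08 SE, q = 9.39e-05), ITGB1 (-0.61 ± 0.11, q = 0.0031), ITGAX (-0.46 ± 0.11, q = 0.0136) and ITGA5 (-0.67 ± 0.19, q = 0.0371). Without UT replicate 3 at 96 h ITGB3 met it too, with -0.53 (q = 0.0168) in place of -0.44 (q = 0.112), and ITGA5 missed it in 14 of 19 fits that each left out 1 array (q up to 0.0889). The other 3 ITGB1 probes had -0.53, -0.53 and -0.37 (q = 0.0904, 0.117 and 0.189), and P344251 of ITGAX had -0.49 (q = 0.195), so neither gene met the limit by its dimmer probes. These 4 of 10 members stand beside 14.1% of detected genes that met it at any fold. Over 8, 24 and 48 h, where slide can enter the fit, that average was -0.70 for ITGAM (q = 0.000688) without slide and -0.52 (q = 0.696) with it. For ITGB1 it was -0.57 (q = 0.015) and -0.70 (q = 0.689). For ITGAX it went from -0.41 (q = 0.0582) to 0.22 and for ITGA5 from -0.76 to 0.23, a change of sign. Marker lists of other cell types differed between the arms as well. The fibroblast sum was higher on vit C arrays without overlap at each time, at 2.40 to 2.65 against 0.86 to 1.52 at 8 h, 2.32 to 2.94 against 1.86 to 2.06 at 24 h, and 2.75 to 2.88 against 1.89 to 2.54 at 96 h, beside the 48 h values above. So was the megakaryocyte sum, at 3.10 to 3.48 against 2.47 to 2.48, then 2.63 to 2.88 against 2.13 to 2.44, and at 96 h 2.54 to 2.57 against 1.17 to 2.13. The epithelial sum was higher without overlap at 8, 24 and 48 h and the B cell sum at 8 and 48 h, while the T cell and endothelial sums were lower without overlap at 8 h. Their part in the averaged differences was not tested.

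**Figure D2:**
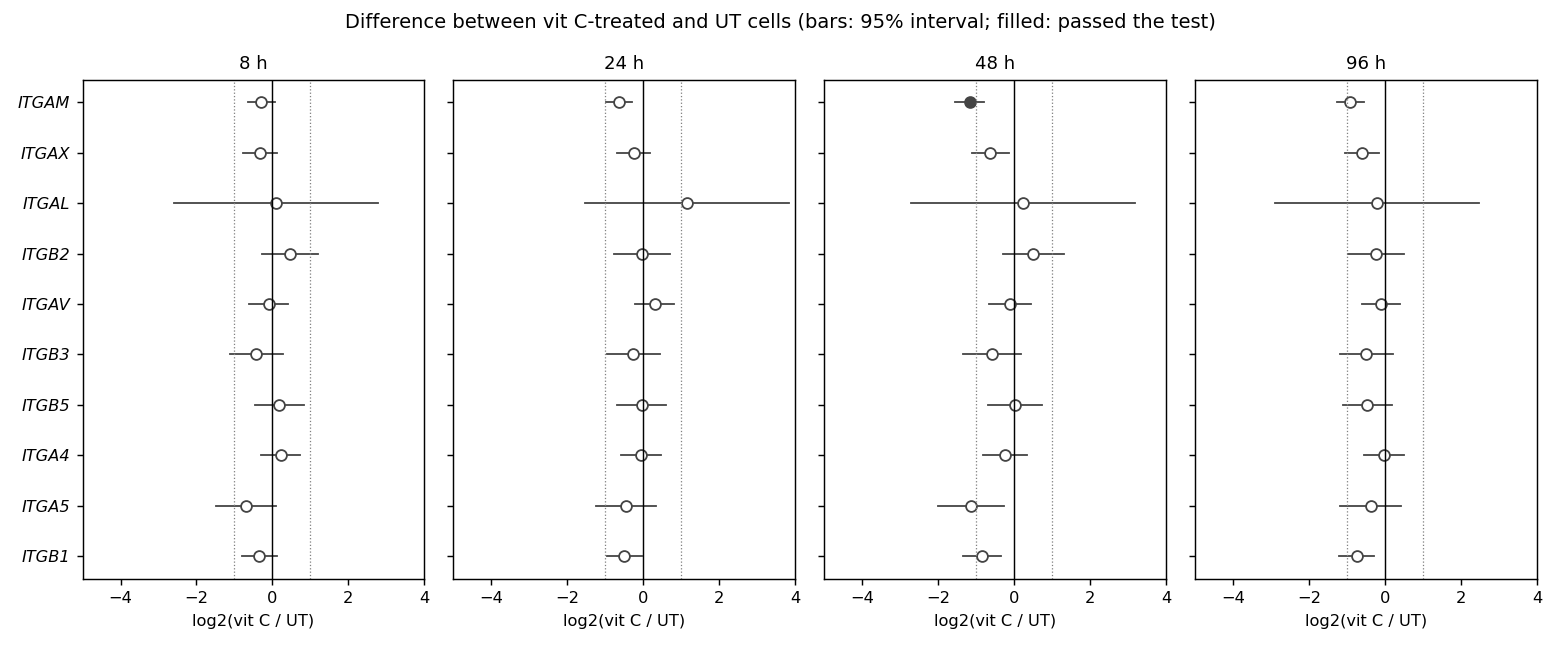
Log2 difference between vit C-treated and UT cells (x axis, negative when lower with vit C) for each integrin subunit (y axis) at 8, 24, 48 and 96 h, with the 95% interval of the limma fit as a bar and dotted lines at -1 and 1. A filled point passed the test, which is ITGAM at 48 h alone, and the ITGAL intervals are the widest in each panel.

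The other question is how the subunits changed with time in culture in each arm. ITGB3 rose at 48 h in both arms and then fell below its 8 h level at 96 h, and ITGAX and ITGA5 fell at 96 h in both arms. The remaining members did not pass the test by their brightest probe at any time. In UT cells 0 of 10 members passed at 24 h, 1 as higher at 48 h and 3 as lower at 96 h, with 2.62% of detected genes passing in either direction, 5.76% as higher and 7.13% as lower. In vit C-treated cells the counts were 0, 1 and 3, with 5.6%, 8.69% and 8.8% passing in the same sense. At 24 h 3 members had an unadjusted p under 0.05 in each arm. The 8 h arrays of an arm are the control in all of its time comparisons, so the values at 48 h and 96 h within an arm are not independent.

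ITGAX dropped between 48 and 96 h in both arms. In UT cells its log2 level was 4.57 and 4.60 at 8 h, 4.54, 4.59 and 4.74 at 24 h, 4.54 and 4.54 at 48 h, and 3.11, 2.72 and 2.27 at 96 h. In vit C-treated cells it was 4.16, 4.23 and 4.35 at 8 h, 4.40 and 4.33 at 24 h, 3.93 and 3.88 at 48 h, and 2.11 and 2.05 at 96 h. All 96 h arrays lay below all other arrays of both arms. From 8 to 96 h ITGAX fell 3.69-fold in UT cells (-1.88 ± 0.21 log2, SE, limma q = 1.89e-05) and 4.49-fold in vit C-treated cells (-2.17 ± 0.21, q = 3.77e-06). The probe P344251 fell too, with log2 changes of -2.19 in UT and -3.05 in vit C-treated cells (q = 0.00454 and 0.000274). On the slide that held UT arrays of both times, the difference from 8 to 96 h was -1.47 with 1 array at 96 h, and without UT replicate 3 it was -1.67 (q = 1.17e-05). In the methods' t-test the fall passed in vit C-treated cells (q = 0.00864) and not in UT cells (q = 0.165).

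ITGA5, the fibronectin receptor's alpha chain, followed the same course. Its log2 level in UT cells was 3.74 and 3.15 at 8 h, 3.44, 3.82 and 3.80 at 24 h, 3.86 and 3.68 at 48 h, and 1.72, 1.32 and 0.04 at 96 h. In vit C-treated cells it was 2.78, 2.54 and 2.94 at 8 h, 3.36 and 3.08 at 24 h, 2.49 and 2.78 at 48 h, and 0.60 and 0.68 at 96 h. The 96 h arrays of both arms were the lowest, with UT replicate 3 lower than any vit C array. ITGA5 fell 5.34-fold from 8 to 96 h in UT cells (-2.42 ± 0.37 log2, SE, limma q = 0.000341) and 4.33-fold in vit C-treated cells (-2.11 ± 0.37, q = 0.000814). Without UT replicate 3 at 96 h the change in UT cells was -1.92 (q = 8.95e-05), and within the shared slide it was -1.72. The methods' t-test gave q = 0.298 in UT cells, short of the test, and 0.0147 in vit C-treated cells.

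Marker lists of other cell types also moved without overlap from 8 to 96 h. In UT cells the fibroblast sum was 0.86 to 1.52 at 8 h and then 1.89 to 2.54 at 96 h, and the megakaryocyte sum 2.47 to 2.48 and then 1.17 to 2.13. The B cell sum in vit C-treated cells was 1.83 to 1.99 and then 0.68 to 0.90, and the megakaryocyte sum 3.10 to 3.48 and then 2.54 to 2.57. In the same arm the fibroblast sum was 2.40 to 2.65 and then 2.75 to 2.88, the T cell sum -2.27 to -2.11 and then -1.92 to -1.83, and the monocyte and macrophage sum 9.01 to 9.23 and then 9.33 to 9.42. Their part in the changes of ITGAX, ITGA5 and ITGB3 at 96 h was not tested.

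ITGB3, the beta chain that with ITGAV binds vitronectin, had the largest change of any member at 48 h. In UT cells its log2 level was -2.09 and -1.55 at 8 h, -1.29, -1.04 and -0.93 at 24 h, 0.68 and 0.26 at 48 h, and -2.51, -2.59 and -3.58 at 96 h. In vit C-treated cells it was -2.53, -2.41 and -1.78 at 8 h, -1.09 and -1.60 at 24 h, -0.15 and -0.08 at 48 h, and -3.29 and -3.49 at 96 h. All 48 h arrays lay above all arrays of the other times. ITGB3 rose 4.87-fold from 8 to 48 h in UT cells (2.28 ± 0.36 log2, SE, limma q = 0.00103) and 4.35-fold in vit C-treated cells (2.12 ± 0.33, q = 0.000473). The methods' t-test gave q = 0.186 and 0.0599, short of the test in both arms. Within the slide that held vit C arrays of both times the difference was 2.09. All UT arrays at 8 and 48 h shared a slide. Marker lists of other cell types moved over the same interval. The endothelial sum was -1.78 to -1.51 at 8 h and then -0.85 to -0.76 at 48 h in UT cells, and -2.08 to -1.80 and then 0.22 to 0.41 in vit C-treated cells. The fibroblast sum was 0.86 to 1.52 and then 2.66 to 2.78 in UT cells, and 2.40 to 2.65 and then 3.21 to 3.57 in vit C-treated cells. The megakaryocyte sum was lower at 48 h, at 2.47 to 2.48 and then 1.29 to 1.42 in UT cells, and 3.10 to 3.48 and then 1.92 to 2.48 in vit C-treated cells. The T cell sum was -2.09 to -2.04 and then -1.96 to -1.71 in UT cells, and -2.27 to -2.11 and then -1.93 to -1.35 in vit C-treated cells. The monocyte and macrophage sum was 9.14 to 9.32 and then 9.39 to 9.42 in UT cells, and 9.01 to 9.23 and then 9.39 to 9.45 in vit C-treated cells. Their part in the ITGB3 rise was not tested.

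By 96 h ITGB3 had fallen 2.11-fold below 8 h in UT cells (-1.08 ± 0.33 log2, SE, limma q = 0.0376) and 2.22-fold in vit C-treated cells (-1.15 ± 0.33, q = 0.018). The fall in UT cells stood close to the limits of the test. It was -0.73 (q = 0.0913) without UT replicate 3 at 96 h and -0.69 (q = 0.459) with slide in the fit. The fall in vit C-treated cells was lost in 4 of 15 alternatives, with q = 0.0647 without vit C replicate 3 at 8 h, 0.0576 and 0.132 without either vit C array at 96 h, and 0.0805 in the methods' t-test. The probe P38519 of ITGB3 passed at 48 h with 2.37 in UT and 2.10 in vit C-treated cells (q = 0.0109 and 0.00806). At 96 h it passed as lower in vit C-treated cells (-1.52, q = 0.0264), and in UT cells it was well above background on 0 of 3 arrays. The probe P929003 was well above background on 3 of 19 arrays, all at 48 h, and no fold is given for it.

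**Figure D3:**
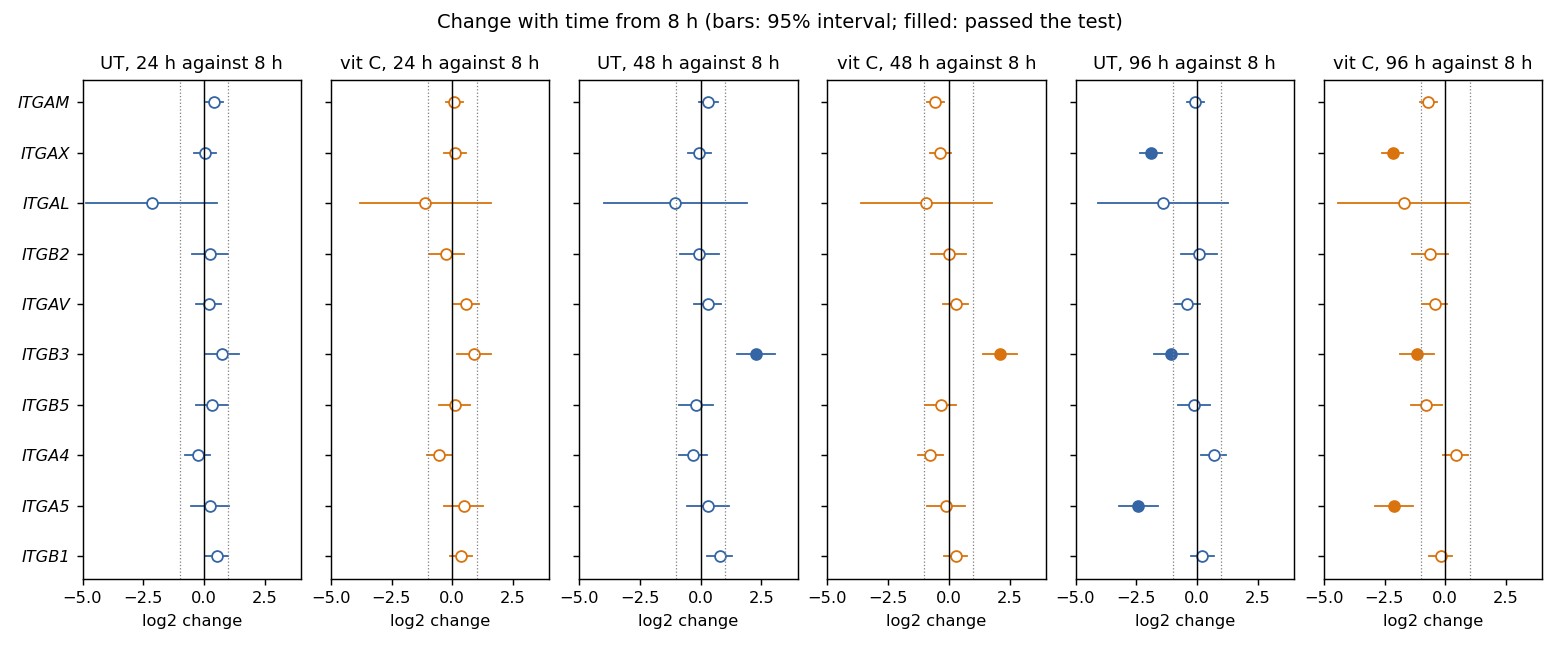
Log2 change from 8 h (x axis) for each integrin subunit (y axis) at 24, 48 and 96 h in UT (blue) and vit C-treated (orange) cells, with the 95% interval of the limma fit as a bar and dotted lines at -1 and 1. Filled points passed the test, namely ITGB3 at 48 h as higher and ITGAX, ITGB3 and ITGA5 at 96 h as lower, in both arms.

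ITGA4, the alpha chain of the VCAM1 receptor, had its highest levels when ITGAX and ITGA5 had their lowest. Its log2 level at 96 h was -0.25, -0.28 and 0.31 in UT cells and -0.14 and -0.09 in vit C-treated cells. All other arrays lay below these, between -1.48 and -0.40. The change from 8 to 96 h was 0.69 ± 0.24 log2 in UT cells (SE, limma q = 0.0733) and 0.43 ± 0.24 in vit C-treated cells (q = 0.194), so neither passed the test.

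ITGB2, the common beta chain of the leukocyte integrins, did not pass in any comparison. Its log2 level lay between 5.75 and 7.04 on the 19 arrays, and the vit C arrays at 24 h alone read 7.04 and 5.94. ITGAL, the LFA-1 alpha chain, had an array far from its replicates. At 24 h in UT cells its log2 level was -3.70, 2.03 and 2.34, from processed signals of 22.4, 1866 and 1610, and the scanner software did not mark the low spot as an outlier. The other ITGAL probe read -0.12, 0.56 and 0.82 on the same arrays, lowest on the same array by a smaller margin. The ITGAL differences therefore had an SE of 1.25 to 1.37. Without that UT array the vit C difference at 24 h went from 1.15 to -0.81, with q = 0.648 and 0.499. Without UT replicate 3 at 96 h, the difference at 96 h went from -0.215 to -0.86, with limma q = 0.942 and 0.685. The dimmer ITGAL probe P54878 passed as lower from 8 to 96 h in vit C-treated cells (-1.64 ± 0.58 log2, SE, limma q = 0.0438), where the brightest had -1.71 (q = 0.322). In the methods' t-test the brightest probe passed there too (q = 0.0151).

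ITGAV and ITGB5, which together form another vitronectin receptor, did not pass in any comparison either. ITGAV lay between 3.13 and 4.66 log2, with its group means lowest at 96 h, at 3.48 ± 0.39 (SD, n = 3) in UT and 3.37 ± 0.23 (SD, n = 2) in vit C-treated cells. ITGB5 lay between 2.44 and 3.87, and its lowest array was UT replicate 3 at 96 h. Without that array the vit C difference of ITGB5 at 96 h was -0.87 (q = 0.0102) in place of -0.47 (q = 0.362), still short of the fold limit.

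ITGB1 gave different pictures by probe. Its brightest probe had log2 levels of 6.82 and 7.07 in UT cells at 8 h, 7.72, 7.36 and 7.31 at 24 h, 7.70 and 7.76 at 48 h, and 7.12, 6.84 and 7.54 at 96 h. In vit C-treated cells it read 6.64, 6.65 and 6.51, then 6.86 and 7.06, then 6.71 and 7.05, then 6.42 and 6.40. Vit C arrays were lower than UT arrays at each time without overlap. The log2 differences were -0.34, -0.51, -0.85 (q = 0.0832) and -0.76 (q = 0.0447), all short of the fold limit. Without UT replicate 3, the highest UT array at 96 h, the difference at 96 h shrank to -0.57 (limma q = 0.0489). The q at 96 h was over 0.05 in 9 of 14 alternatives, among them 0.139 and 0.288 without either vit C array, 0.0855 with the replicate block and 0.331 in the methods' t-test.

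The 3 printed ITGB1 probes had vit C differences of the same sign as the brightest up to 48 h, from -0.95 to -1.15 at 48 h (q from 0.189 to 0.25). At 96 h their differences were 0.26 to 0.35, the opposite sign, with q from 0.593 to 0.748. The UT arrays of that time were far apart on these probes, with P104193 at 3.72, 2.34 and 3.44, and the vit C arrays, at 3.70 and 3.19, lay among them. From 8 to 96 h in vit C-treated cells P104193 rose by 1.20 ± 0.37 log2 (SE, limma q = 0.0239) and P598836 by 1.01 ± 0.34 (q = 0.0381), and P104199 had 1.05 with q = 0.0612. The brightest probe had -0.19 (q = 0.544) there. Across the 19 arrays the 3 probes correlated with each other at r = 0.95 to 0.965 and with the brightest at r = 0.589 to 0.594, values that share the arrays' scaling. The direction of ITGB1 at 96 h therefore depends on the probe, and under the methods' own rule on opposing probes the gene would be left out there.

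**Figure D4:**
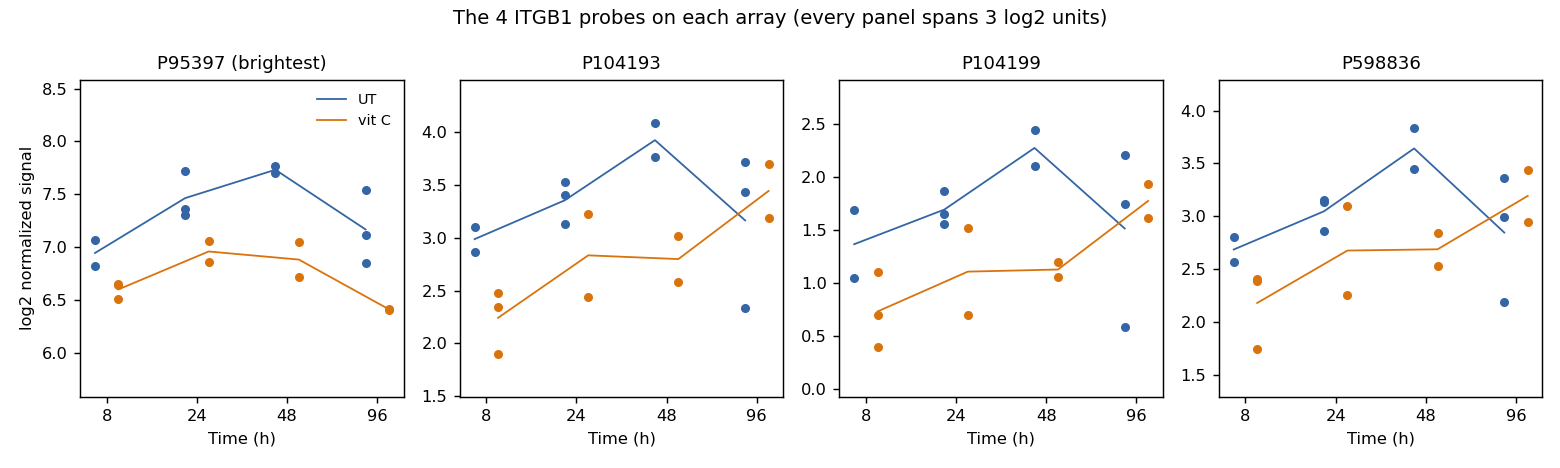
Log2 normalized signal (y axis, each panel spanning 3 log2 units) of the 4 ITGB1 probes against time in h (x axis) in UT (blue) and vit C-treated (orange) cells, 1 point per array, with lines through the group means. From 48 to 96 h the vit C mean goes down in the brightest probe and up in the other 3.

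Partner chains were set side by side over the 19 arrays as a description, since arrays of 8 groups are not independent points. ITGAV had r = 0.627 with ITGB3, 0.545 with ITGB1 and 0.141 with ITGB5. ITGB1 had 0.395 with ITGA5 and -0.284 with ITGA4. ITGB2 had 0.22 with ITGAX, -0.039 with ITGAL and -0.097 with ITGAM. The genes most like ITGAX among 17291 detected genes were DUSP2 (r = 0.983) and MATK (r = 0.978), and those most like ITGA5 were MIER2 (0.974), RUSC2 (0.972) and ITGAX itself (0.971). The genes most like ITGB3 were HBEGF (0.961) and TM7SF4 (0.959), and those most like ITGAM were RFX2 (0.93) and CCL19 (0.924).

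Among 16 other integrin subunits, of which 12 or 13 were detected by comparison, ITGA1, an alpha chain that binds collagen, had the largest rise. It rose by 3.78 at 48 h and 2.91 at 96 h in UT cells and by 4.01 and 3.62 in vit C-treated cells on the log2 scale (limma q from 1.45e-06 to 2.14e-05). ITGA3, a laminin receptor chain, rose by 2.11 (q = 0.00382) and 1.33 (q = 0.0237) at 48 h in the 2 arms. Over the list, 4 rose and 1 fell at 48 h in UT cells and 3 rose and 1 fell in vit C-treated cells, and at 96 h 1 rose in each arm while 2 and 4 fell. Of all detected genes, 5.76% rose and 3.51% fell at 48 h and 9.13% rose and 7.13% fell at 96 h in UT cells, against 8.69% and 5.59%, then 12% and 8.8% in vit C-treated cells. Vit C against UT gave 0 higher and 4 lower at 48 h, namely ITGA2 (-1.89, q = 0.0023), ITGB7 (-1.31, q = 0.00767), ITGA6 (-1.21, q = 0.0166) and ITGA7 (-1.13, q = 0.0143). It gave 0 at 8 h, where 4 had an unadjusted p under 0.05, ITGA2 as lower at 24 h (-1.48, q = 0.01) and ITGA7 as lower at 96 h (-1.58, q = 0.000381). Of all detected genes 0.147%, 0.578%, 1.53% and 1.8% passed as lower for vit C in time order. The list's median difference was -0.42, -0.37, -0.32 and -0.47 in time order, beside -0.09, -0.01, -0.07 and -0.05 over detected genes.

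Of 29 integrin ligands, 23 or 24 were detected. FN1, the fibronectin bound by ITGA5 with ITGB1, rose by 6.50 log2 at 48 h and 6.36 at 96 h in UT cells and by 6.62 and 6.72 in vit C-treated cells (limma q from 1.36e-08 to 1.47e-07), so FN1 was high at 96 h, when ITGA5 was at its lowest. CYR61, a matrix protein bound by ITGAV and ITGAM receptors, rose by 5.42 and 5.81 at 48 h (q = 2.18e-07 and 2.36e-08). VCAM1, the ligand of ITGA4 with ITGB1, fell at 96 h in UT and vit C-treated cells, with log2 changes of -1.61 (q = 0.00471) and -2.40 (q = 0.000155). ICAM1, bound by the ITGB2 receptors, had -1.21 (q = 0.000109) and -1.64 (q = 4.8e-06). In all, 7 ligands rose and 3 fell at 48 h and 5 rose and 5 fell at 96 h in UT cells, against 8 and 5, then 7 and 6 in vit C-treated cells. The shares of all detected genes are those given above for the other subunits.

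For vit C against UT, 0.342%, 1.48%, 3.42% and 4.18% of all detected genes passed in either direction in time order. Of the ligands 0 passed by limma at 8 h and 3 had an unadjusted p under 0.05 there, and ICAM5 alone passed at 24 h (1.13, q = 0.0112). At 48 h MFGE8, which bridges dying cells to ITGAV receptors, was lower by -2.18 log2 (q = 0.000518), NOV by -1.95 (q = 0.0115) and SPP1, osteopontin, by -1.42 (q = 0.0381). At 96 h MFGE8 (-1.40, q = 0.00241) and NOV (-1.15, q = 0.0424) were again lower.

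Of 54 integrin adaptors and activators, 53 were detected. At 96 h 1 rose and 12 fell in UT cells from 8 to 96 h, and 5 rose and 13 fell in vit C-treated cells, beside 9.13% higher and 7.13% lower, and 12% and 8.8%, of all detected genes. CD9, a tetraspanin that associates with integrins, fell in both arms, with log2 changes of -3.42 and -3.50 (limma q = 4.19e-07 and 2.43e-07). FERMT3, kindlin-3, the activator of the ITGB2 receptors in blood cells and named URP2 on the array, fell too, with -2.56 and -2.44 (URP2, q = 0.000323 and 0.00038). Under vit C against UT 1 adaptor passed at each time: BCAR1 at 8 h (-1.01, q = 0.0277), the filamin FLNA at 24 h (-1.08, q = 0.017) and 96 h (-1.13, q = 0.00481), and paxillin, PXN, at 48 h (1.83, q = 0.0452). Beside the shares of all detected genes just given for vit C, 1 of 53 is not a result about the adaptors.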

How the data were processed

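RNA of UT and vit C-treated THP-1 cells was hybridized to 19 single-colour Agilent arrays. For the intensity values, the authors extracted spots with Feature Extraction. The file headers give 10.5.1.1 for its grid placement step, and the methods name another version of the software. The authors deposited the linear processed signal, with spatial and multiplicative detrending by that software, no local background subtraction and low signals replaced by surrogates. The deposited log2 values of the series matrix are the same signals shifted to the 75th percentile of each array by the authors in GeneSpring, and they were used as a check. The methods state that samples of lower RNA quality were set aside. The array design was annotated on hg18.

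Here non-control spots of a probe were averaged on the log2 scale, and each array was shifted by its own 75th percentile. Array signal limits the precision, and 57.5% to 72.8% of probes per array were well above background, 0 were saturated and 30 to 79 spots were marked as outliers and kept. Group means of the 8 groups were estimated from all 19 arrays with limma 3.58.1 in R 4.3.3 (2-sided, Benjamini-Hochberg over 50238 probes), in place of the methods' t-test, since groups hold 2 or 3 arrays. The limits, a log2 change of 1 and q of 0.05, are those of the methods. Genes with opposing probes were kept so that each member has a value. Detected genes are those whose brightest probe passed the scanner's background test on all arrays of a compared group. The script was tested on simulated data.

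The members, gene lists, alternatives and the rule for named genes (all members, and at most the 4 largest changes per list, direction and comparison) were chosen with earlier results of these data known. Marker lists for monocytes and macrophages, T cells, B cells, megakaryocytes, fibroblasts, epithelium and endothelium had summed log2 levels of 9.01 to 9.55, -2.27 to -1.35, 0.55 to 2.33, 1.17 to 3.48, 0.86 to 3.57, -2.05 to -0.96 and -2.08 to 0.41 over the arrays. The adaptor counts include a gene that is not reported here. The array's older names for 5 list genes were matched through RefSeq synonyms. Alternatives were quantile, detected-probe and normexp scaling, gene means, slide and replicate blocks, the methods' t-test, removal of opposing probes and each array left out. Python 3.11.15 with matplotlib 3.10.9 drew the figures.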

Additional observations from a re-analysis of the deposited data

How the results depend on the processing

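The count of members passing the test kept its value within 1.5 times under most alternatives. For vit C against UT at 48 h it went from 1 to 0 with slide as a fixed block and to 0 with the methods' t-test, in which 4 members had an unadjusted p under 0.05. The methods' t-test also gave 0 for UT 48 h against 8 h, 0 for UT 96 h against 8 h and 0 for vit C 48 h against 8 h, and the cause was not tested. ITGAL from 8 to 96 h in vit C-treated cells was the 1 member change that passed only in an alternative (-1.71, q = 0.0151 in the methods' t-test). No called change of a member reversed. The falls of ITGAX and ITGA5 from 8 to 96 h in vit C-treated cells held in all 15 alternatives run for them, between -2.61 and -2.10 and between -2.23 and -1.94 on the log2 scale, and in UT cells in 15 of 16, the exception being the methods' t-test. The fall of ITGB3 at 96 h in UT cells was lost in 8 of 15, between -1.35 and -0.56, and that in vit C-treated cells in 4 of 15, between -1.30 and -0.92, including without vit C replicate 3 at 8 h and without either vit C array at 96 h. The rise of ITGB3 at 48 h was lost only under the methods' t-test, in both arms. Same-numbered samples of both arms had deviations that correlated between -0.112 and 0.09. In groups of 2 or 3 arrays such values cannot show whether the numbers pair the samples. With the replicate block ITGB3 in UT cells at 96 h had -1.06 (q = 0.0832), the count there was 2 in place of 3, and no other called change of a member was lost. Quantile scaling moved the median of all probes by up to 0.15 and normexp by -0.40 (vit C 96 h against 8 h), -0.30 (vit C against UT at 96 h) and 0.26 (UT 48 h against 8 h). The slide could not be fitted as a fixed block for vit C against UT at 96 h, their average over all times, the F test and vit C 96 h against 8 h. The averages over 8 to 48 h were chosen after seeing the data. Where a group of 2 lost an array, the lone array was assumed to vary like the others. Groups of 2 or 3 arrays limit every value, and the dim ITGB3 probes are limited by signal over background.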
